A study of Mus musculus with 4 samples.

Results

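Vascular smooth muscle cells of the mouse submandibular gland were taken from single-cell libraries by a rule on raw UMI counts (a UMI is a tag that marks 1 captured RNA molecule). Members held 500 UMIs or more from 300 or more genes, with no more than 15% of the UMIs from mitochondrially encoded genes. They had at least 2 Myh11 UMIs and at least 4 UMIs of Acta2 and Tagln together. They also had to have no UMI of the basal keratins Krt5 and Krt14 or of the leukocyte gene Ptprc, and at most 1 of the endothelial genes Pecam1 and Cdh5. The rule found 711 of 39843 kept cells, of which the ligated library held 208 and the mock libraries 1, 2 and 3 held 166, 142 and 195. All 4 libraries came from female C57BL6/J mice. In the ligated library a metal clip had closed the main ducts draining both the submandibular and the sublingual gland for 14 days, and in the 3 mock libraries the ducts were found at surgery but not clipped. Before capture on the 10x Genomics droplet platform the suspensions were depleted of EpCAM-bearing epithelium, of Ter119-bearing erythroid cells and of dead cells. The comparison the design implies is closed against open ducts in the stroma of the gland. Labels name the submandibular gland, while the protocol harvested submandibular and sublingual glands together.

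Smooth muscle cells form the contractile wall of arteries, arterioles and veins. Force comes from smooth muscle myosin, whose heavy chain is Myh11, sliding on smooth muscle actin, Acta2, after calcium has activated the myosin light chain kinase Mylk, which phosphorylates the regulatory light chain Myl9. Contractile genes are controlled by serum response factor, which binds the CArG box in DNA, with its cofactor myocardin, Myocd. Pericytes, their neighbours on capillaries, share many genes with them but have little or no Myh11. In salivary glands the vessel tone set by these cells governs the blood flow that feeds secretion.

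The promoters of 4 genes on which the results turn are shown first, as the 250 bases before the annotated start in RefSeq (GRCm38.p6), 5′ to 3′ on the gene's strand. Myl9 and Ldb3, a Z-band protein, are contractile genes with a CArG box, which is in capitals. Pln (phospholamban, the inhibitor of the sarcoplasmic calcium pump) and Rgs5 (a brake on G protein signalling, and a marker of pericytes) mark the opposite ends of the spread among the cells described further on.
Myl9, chr2:156775214-156775463, + strand: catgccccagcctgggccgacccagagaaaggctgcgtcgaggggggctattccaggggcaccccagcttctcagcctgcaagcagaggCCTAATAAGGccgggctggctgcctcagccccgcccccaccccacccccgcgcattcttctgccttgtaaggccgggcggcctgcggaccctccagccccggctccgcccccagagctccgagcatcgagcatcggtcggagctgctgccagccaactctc
Ldb3, chr14:34588682-34588931, - strand: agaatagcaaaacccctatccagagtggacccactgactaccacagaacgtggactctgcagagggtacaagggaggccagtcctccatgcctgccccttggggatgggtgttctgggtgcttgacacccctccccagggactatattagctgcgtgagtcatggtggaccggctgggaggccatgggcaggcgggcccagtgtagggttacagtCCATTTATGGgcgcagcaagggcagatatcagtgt
Pln, chr10:53337436-53337685, + strand: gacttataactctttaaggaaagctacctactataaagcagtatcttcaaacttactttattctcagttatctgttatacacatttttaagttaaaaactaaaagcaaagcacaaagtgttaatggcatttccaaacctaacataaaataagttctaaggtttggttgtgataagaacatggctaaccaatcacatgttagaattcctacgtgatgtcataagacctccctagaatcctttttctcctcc
Rgs5, chr1:169655251-169655500, + strand: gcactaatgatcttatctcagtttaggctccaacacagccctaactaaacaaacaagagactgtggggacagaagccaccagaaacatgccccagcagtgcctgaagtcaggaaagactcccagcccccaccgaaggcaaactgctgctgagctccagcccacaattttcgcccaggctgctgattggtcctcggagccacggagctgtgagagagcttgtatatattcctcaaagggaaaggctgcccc

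The box starts 161 bases before the start of Myl9 and 35 and 109 bases before the 2 annotated starts of Ldb3, of which the first is the one shown. Searched as the consensus CArG box, which reads the same on both strands, it was found in 4 of the 27 contractile and filament genes that have a promoter window (Myl9, Cnn2, Vcl and Ldb3), or 14.8%. Over all 32851 promoter windows of 300 bases, 1.63% held it. It was in 1 of 24 windows of immediate early genes (Zfp36), in 1 of 20 of calcium handling genes (Trpc6) and in 0 of 8 of pericyte marker genes. A match is a description of these letters and not evidence of binding. Pln and Rgs5 had no match in this window, and the base composition of the stretches shown differed widely, with 32.8% G and C for Pln, 53.6% for Rgs5, 58.4% for Ldb3 and 70% for Myl9.

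The libraries differed in ways that touch every comparison. The matrices of the ligated library and mock 1 came from Cell Ranger 6.0.1, and those of mock 2 and mock 3 from 7.0.0, per the file headers, and mock 2 and mock 3 were far more alike than any other pair. Over the summed smooth muscle counts, chi-square divided by its degrees of freedom was 1.45 between mock 2 and mock 3 and 10.4 to 12.7 between all other pairs. Values over mock 1 alone, the library of the same software version, are therefore given beside the main ones. Between 11 and 61 barcodes were shared by any 2 libraries. Nothing in the labels says whether the libraries came from separate mice, so p-values measure the spread between these libraries.

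The members matched their label by their markers. Thinned to 2000 UMIs a cell, which keeps 198, 162, 137 and 188 cells of the ligated library and mock 1, 2 and 3, Myl9 had a UMI in 99.5, 99.4, 99.3 and 98.4% of the cells, against 2.57, 1.69, 0.586 and 0.779% of lymphocytes, which should lack it. Lmod1 (leiomodin, an actin nucleator of smooth muscle) had one in 64.1, 62.3, 55.5 and 52.1%, against 0 to 0.328% of lymphocytes. Pln, by contrast, had a UMI in only 51.5% of the ligated and 25.9, 36.5 and 33.5% of the mock cells (59.1, 42.8, 45.1 and 44.1% unthinned), so it marked a fraction of the members. Myh11, Acta2 and Tagln chose the cells and are given only as levels. Acta2 was at 11700 CPM (UMI counts scaled to the total of each library) in the ligated library and 13486, 9982 and 9814 CPM in mock 1, 2 and 3. Tagln, a calponin-family actin binder, was at 7875 CPM against 10123, 8946 and 8508 CPM. Myh11 was at 3717 CPM against 6898, 4122 and 3760 CPM. For Tagln and Myh11 the ligated library was the lowest of the 4, just under mock 3 for Myh11, and for Acta2 it lay inside the mock range.

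Most members also carried Rgs5, which had a UMI in 84.8, 85.2, 89.1 and 85.6% of the thinned cells. The 10 listed markers of myoepithelial cells, contractile epithelium that also has Acta2 and Myh11, summed to 3.78 CPM in the ligated library and 0.673, 1.06 and 2.66 CPM in mock 1, 2 and 3, and none of them had enough counts to test. The rule had removed every cell with a Krt5 or Krt14 UMI, so this low level was set in part by the rule. Gja5, an arterial connexin, had no UMI in any thinned member. Nr2f2, a transcription factor known from veins, had one in 58.6, 61.1, 67.2 and 58% of them, so artery and vein were not told apart here.

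**Figure D1:**
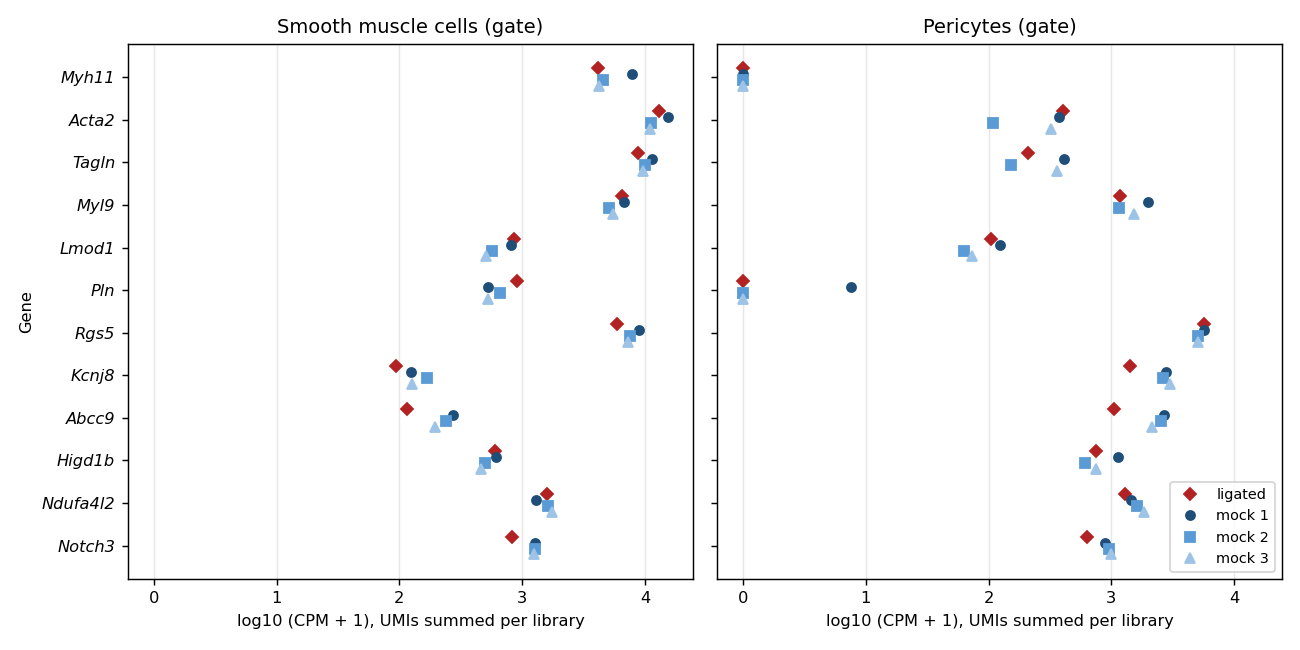
Levels of 6 smooth muscle markers, 5 pericyte markers and Notch3 on a log10 scale (CPM + 1), 1 point per library, in smooth muscle cells and in pericytes, with 1 scaling over both cell types. Pln and Myh11 were at or near 0 in the pericytes, where Myh11 is 0 by the rule, while Rgs5, Ndufa4l2 and Notch3 lay at similar levels in both cell types.

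At the edge of the rule, 31, 10, 20 and 21 members of the ligated library and mock 1, 2 and 3 had only 2 or 3 Myh11 UMIs, and 21, 3, 17 and 12 cells missed it with 1. The median member had 12, 42.5, 21 and 15 Myh11 UMIs. The exclusions removed more cells from the ligated library. Of its 300 cells that met the Myh11, Acta2 and Tagln limits, 54 had a Ptprc UMI, against 3 of 183, 3 of 179 and 12 of 261 in mock 1, 2 and 3.

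Smooth muscle cells made up 1.56% of the kept ligated cells (exact 95% interval 1.36 to 1.79, which covers counting error only). In mock 1, 2 and 3 they made up 3.62, 1.53 and 1.54%, a mean of 2.23% ± 1.20 (SD, n = 3). The ligated share lay between the mock values, and the smallest exact permutation p that this design allows is 0.25. Without mock 1 the ligated share was 0.0282 percentage points above the mock mean, in place of 0.666 below it. Of smooth muscle cells and pericytes together, smooth muscle cells were 50.2% in the ligated library and 70.3, 61.2 and 59.1% in the mock libraries, so here the ligated library lay below all 3. Dissociation, depletion and dead cell removal can set these shares.

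The members differed among themselves along a graded series. Cells with much Rgs5 had little Pln and less of the contractile genes, in every library. Across the thinned cells of a library, Pearson's r between the log counts of Rgs5 and Pln was -0.62 in the ligated cells and -0.63, -0.71 and -0.61 in those of mock 1, 2 and 3. Tpm2 (tropomyosin, -0.56 to -0.63), Dstn (an actin-severing protein, -0.53 to -0.68) and Myl9 (-0.46 to -0.53) also went against Rgs5. Ednrb (the endothelin B receptor, 0.41 to 0.56), Steap4 (a metalloreductase, 0.37 to 0.53), Pdgfrb (the receptor through which endothelium recruits mural cells, 0.38 to 0.42) and Abcc9 (a subunit of the ATP-sensitive potassium channel, 0.31 to 0.41) went with it. These genes are among the most extreme of 1161 compared, cells of 1 library share their preparation, and the values are a description.

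The ends of this series can be set out by Rgs5 UMIs per 2000. Among cells with none, Pln had a UMI in 29 of 30 ligated cells and in 18 of 24, 14 of 15 and 22 of 27 cells of mock 1, 2 and 3. Among cells with 15 or more it had one in 8 of 67 ligated cells and 5 of 83, 5 of 70 and 5 of 80 mock cells. Kcnab1, a potassium channel subunit, and Cnn1, the smooth muscle calponin, followed Pln: Cnn1 was at 366 CPM in the ligated cells with 0 to 4 Rgs5 UMIs and at 3.06 CPM in those with 15 or more. Mock 1 had 596 and 10.5 CPM of Cnn1, mock 2 had 324 and 4.96, and mock 3 had 242 and 0. Steap4 went the other way, from 18.4 to 260 CPM in the ligated library and from 5.57 to 503, 21.2 to 662 and 29.1 to 576 CPM in mock 1, 2 and 3. Abcc9 did the same, from 22.5 to 208 CPM in the ligated library and from 3.72 to 432, 30.2 to 417 and 37.8 to 340 CPM in the mock libraries. Depth and mitochondrial content moved along the series. The median cell with 0 to 4 Rgs5 UMIs had 5930.5, 13442.5, 8277.5 and 7190 UMIs in the ligated library and mock 1, 2 and 3, and 8.90, 9.29, 9.73 and 9.95% mitochondrial UMIs. The median cell with 15 or more had 4782, 8033, 5672 and 5242.5 UMIs and 4.85, 5.26, 4.97 and 5.05%, and the part of these differences in the series was not tested. The ranges were set after the values were seen, and 15, 8, 4 and 12 cells lay at 4 or 5 UMIs, beside the lower limit.

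The ligated library held fewer cells of the Rgs5-rich range. Per 2000 UMIs, the median ligated member had 8 Rgs5 UMIs, and the median members of mock 1, 2 and 3 had 16, 15 and 12. Cells with 15 or more were 33.8% of the ligated members and 51.2, 51.1 and 42.6% of the mock members, and the ligated value lay below all 3. Cells with 0 to 4 were 74 of 198 in the ligated library and 40 of 162, 38 of 137 and 49 of 188 in the mock libraries. No test was made of these shares, since the smallest exact permutation p is again 0.25.

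**Figure D2:**
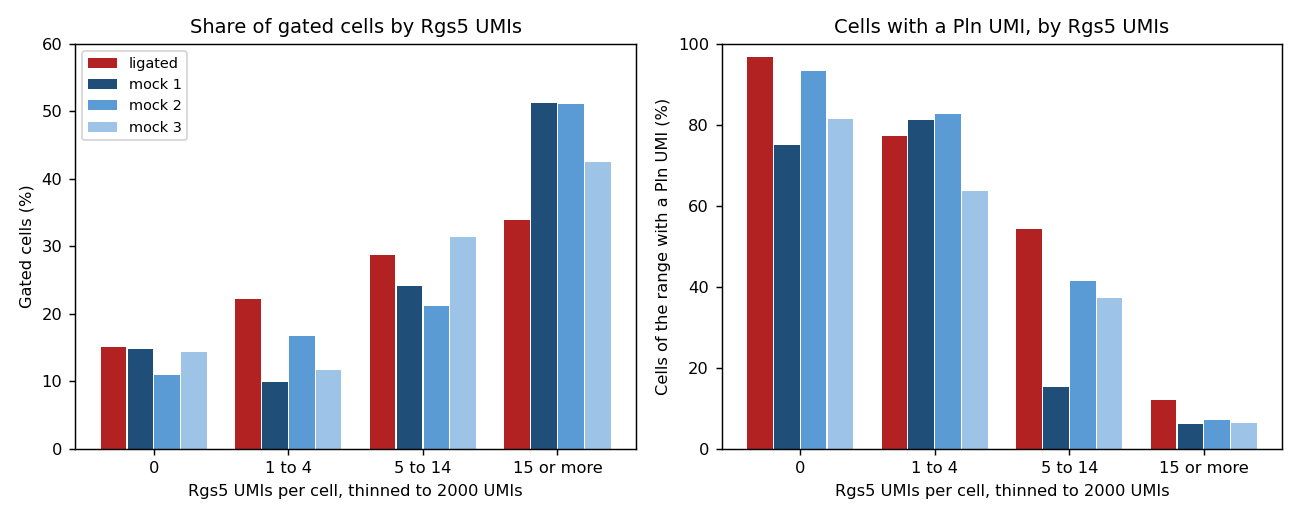
Left, the share of gated cells (%) in each range of Rgs5 UMIs per 2000, and right, the share of the cells of each range (%) that had a Pln UMI, with 1 bar per library. The bar of the ligated library at 15 or more Rgs5 UMIs (33.8%) is the lowest of the 4, and the Pln share is lowest at 15 or more Rgs5 UMIs in all 4 libraries.

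Levels in the smooth muscle cells of the ligated library were compared with the 3 mock libraries on counts summed per library. Of 9716 genes tested with edgeR's quasi-likelihood test, 1 was higher (0.0103%) and 0 were lower at an adjusted p under 0.05. At an unadjusted p under 0.05, 300 genes were higher (3.09%) and 337 were lower (3.47%), and DESeq2 called 3 higher and 2 lower. The gene that rose was Ccl5, a chemokine of T and natural killer lymphocytes, at 142 CPM (150 UMIs) against 5.39, 4.23 and 2.66 CPM (log2 fold change 5.05, SE 0.34, edgeR adjusted p = 0.0270). In the other kept cells Ccl5 stood at 3637 CPM in the ligated library and at 970 to 1322 CPM in the mock libraries. The rise was not particular to the members. On a scaling shared with pericytes, Ccl5 was at 195 CPM in ligated and 2.68 to 6.63 CPM in mock pericytes. The 6 tested lymphocyte markers lay above all 3 mock libraries in 5 cases and the 8 tested macrophage markers in 8. The summed levels of the 2 lists were 322 and 382 CPM against 56.9 to 64.5 and 20.2 to 95 CPM. Ccl5 is itself 1 of these lymphocyte markers and of the 5 cases, and gives 142 of the 322 CPM. The part of RNA from lymphocytes and macrophages in the Ccl5 difference was not tested. With a wider gate, or in either Rgs5 range alone, Ccl5 no longer passed, while its log2 fold change was 4.47 to 5.34 over the 15 alternatives run.

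The spread among the 3 mock libraries sets what this test can call. With mock 1 left out, 752 genes were higher and 947 lower, and with a term for the software version 483 were higher and 526 lower, fits whose spread comes from mock 2 and mock 3 alone. Without mock 2, 11 were higher and 3 lower. For the rest of the comparison the level in each library is given, with the count of genes that lay above all 3 mock libraries (27.5% of the genes tested) or below all 3 (26.9%).

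None of the 12 genes with the largest differences upward passed the adjusted test with edgeR. Rasd1, a small GTPase induced by glucocorticoids, was at 108 CPM in the ligated library and 19.5, 20.1 and 18.7 CPM in mock 1, 2 and 3. Its log2 fold change was 2.47 (SE 0.26, edgeR adjusted p = 0.138; 2.46 over mock 1), and DESeq2 gave an adjusted p of 0.0426. The 3 mock libraries were nearly equal, and the ligated library stood far above them. Rasd1 stood at 8.91 CPM in the other kept cells of the ligated library and 9.45 to 12.3 CPM in those of the mock libraries. Ppp1r15a (GADD34, which restarts translation after stress) was at 158 CPM against 43.8, 41.2 and 43.5 CPM (log2 fold change 1.88, SE 0.23, edgeR adjusted p = 0.302). The other kept cells had it above all 3 mock libraries too, at 88.4 against 57.5 to 67.1 CPM. In pericytes, on the scaling shared with them, it was at 65.7 against 27.8 to 32.2 CPM. Pi15, a secreted peptidase inhibitor, was at 107 CPM against 29.6, 38.1 and 38.2 CPM (1.60, SE 0.28). Over all other kept cells of the ligated library Pi15 was at 5.04 CPM. On the scaling shared with pericytes it was at 14.1 CPM in ligated and 6.19 to 19.9 CPM in mock pericytes, against 118 and 33.4 to 42.9 CPM in the smooth muscle cells. In the members it went with low Rgs5 (149 against 30.6 CPM in the low and high range of the ligated library). Akr1b10, an aldo-keto reductase, was at 51 CPM against 17.5, 18 and 22.2 CPM, and in the other kept cells at 32 against 15.8 to 17 CPM.

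Other genes of this group were spread more widely over the mock libraries. Gpx3, a secreted glutathione peroxidase, was at 90.7 CPM against 17.5, 10.6 and 48 CPM. Olfr560, an olfactory receptor, was at 86 CPM against 4.71, 38.1 and 49.7 CPM. Its level in the far more numerous other kept cells was 0.602 CPM in the ligated library and 0.0362 to 0.199 CPM in the mock libraries. Nr1d1, a repressor of the circadian clock, was at 51 CPM against 22.9, 0 and 0.888 CPM. Neat1, a nuclear noncoding RNA, was at 340 CPM against 180, 88.8 and 100 CPM, and the protease Adamts1 at 115 CPM against 59.9, 26.4 and 31.1 CPM. Outside the members Neat1 was also above all 3 mock libraries, at 276 against 71.6 to 158 CPM. So were Gpx3, at 51.3 against 30.4 to 46.2 CPM, and Nr1d1, at 30.8 against 2.1 to 22.4 CPM. Adamts1 lay inside the mock range there, at 60.6 against 34 to 214 CPM.

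Immediate early and stress genes, which are transcribed within minutes of a stimulus and also during tissue dissociation, lay above all 3 mock libraries in 15 of 25 cases and below in 1, with a median log2 fold change of 0.53 (0.41 over mock 1) against -0.03 over all genes. No member passed the adjusted test. Fos was at 952 CPM in the ligated library and 600, 154 and 233 CPM in mock 1, 2 and 3, and Fosb at 290 CPM against 102, 23.3 and 28.4 CPM. Junb was at 444 CPM against 207, 111 and 165 CPM, and Btg2, an antiproliferative gene, at 284 CPM against 116, 68.7 and 64 CPM (log2 fold change 1.77, SE 0.35). For all 4 genes mock 1 lay between the ligated library and the other mock libraries. The same genes were abundant outside the gate: Fos was at 387 CPM in the other ligated cells and 322 to 518 CPM in the other mock cells, and Junb at 535 against 376 to 559 CPM. Btg2 and Fosb stood above all 3 mock libraries there too, at 460 against 239 to 258 CPM and at 204 against 63.2 to 114 CPM. Socs3, the feedback inhibitor of cytokine signalling, was at 52 CPM against 22.9, 10.6 and 8 CPM. Klf2, a flow-responsive factor, was at 173 CPM against 74.7, 11.6 and 17.8 CPM. Heat shock genes were above all mock libraries in 9 of 19 cases and below in 4, led by Hspa1a, the inducible HSP70, at 65.2 CPM against 30.3, 25.4 and 21.3 CPM. The labels do not give the time from tissue to capture, and its part was not tested.

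**Figure D3:**
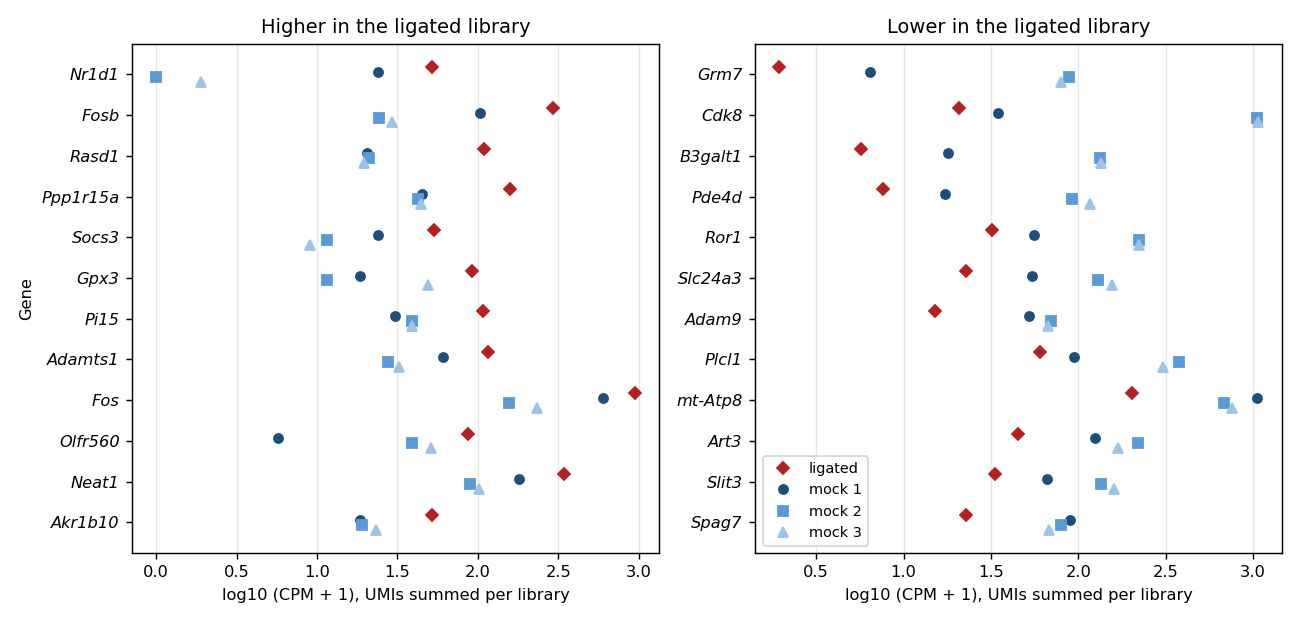
Levels on a log10 scale (CPM + 1) of the 12 genes with the largest log2 fold change in each direction among those with at least 50 CPM, a level at least 1.5 times outside the mock range and a level at least as high as in the other cells, with 1 point per library. Mock 2 and mock 3 lie far to the right of mock 1 for Cdk8, B3galt1, Grm7, Pde4d and Plcl1, while mock 1 lies furthest to the right for Spag7 and mt-Atp8. For Adam9 the libraries order as for Grm7, but the mock points lie close together.

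Among the 12 genes with the largest differences downward, most separated the libraries by software version as much as by surgery. Cdk8, a kinase of the Mediator complex, was at 19.8 CPM in the ligated library and 33.7 CPM in mock 1, but at 1057 and 1074 CPM in mock 2 and mock 3. Grm7, B3galt1, Pde4d, Plcl1, Ror1 and Slc24a3 had the same order. For these genes surgery and version cannot be told apart in mock 2 and mock 3. Within 1 version, the differences over mock 1 on the log2 scale were -2.51 for Grm7, -1.83 for B3galt1, -1.29 for Slc24a3, -1.29 for Pde4d, -0.81 for Ror1, -0.76 for Cdk8 and -0.65 for Plcl1, so the ligated library was the lowest for all 7. Adam9, a membrane protease, differed from all 3: it was at 14.2 CPM against 51.2, 68.7 and 65.7 CPM (log2 fold change -2.11, SE 0.38, edgeR adjusted p = 0.570). In the other cells Adam9 was also below all 3, at 9.41 against 16.8 to 26 CPM. Spag7 was at 21.7 CPM against 88.9, 78.3 and 66.6 CPM, and in the other cells at 19.8 against 64.5 to 69.7 CPM, so the same gap was present outside the members. The mitochondrial gene mt-Atp8 showed the same in both, at 203 against 678 to 1052 CPM in the members and 133 against 274 to 460 CPM in the other cells.

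Contractile and filament genes showed no common shift. Of 27 tested outside the rule, 3 lay above and 10 below all mock libraries, with a median log2 fold change of -0.11 (0.12 without mock 1, and -0.47 over mock 1). Myl9 was at 5834 CPM in the ligated library and 5930, 4586 and 4833 CPM in mock 1, 2 and 3, inside the mock range. Lmod1 was at 770 CPM against 720, 509 and 452 CPM (log2 fold change 0.46, SE 0.30). Mcam (CD146, an adhesion protein of vessel walls) showed the largest gap of the group, at 97.4 CPM against 316, 261 and 282 CPM (log2 fold change -1.56, SE 0.27, edgeR adjusted p = 0.570, and 0.0452 with DESeq2). The difference was as large over mock 1 (-1.70), and was -1.89 in the low and -1.29 in the high Rgs5 range. In the thinned cells Mcam had a UMI in 15.2% of ligated and 45.7, 32.1 and 38.8% of mock members, against 1.55% and 0.586 to 1.36% of lymphocytes. The gap was also present outside the members. Mcam was at 89.1 CPM in ligated and 201 to 242 CPM in mock pericytes, on the scaling shared with them. In the other kept cells it was at 36 against 54.4 to 62.1 CPM. Ldb3, whose promoter is printed above, was at 45.4 CPM against 114, 95.2 and 92.4 CPM (-1.15, SE 0.29). Itga8, the integrin alpha 8 subunit, was at 116 CPM against 181, 247 and 235 CPM, and Ppp1r14a (CPI-17, an inhibitor of myosin phosphatase) at 542 CPM against 905, 782 and 783 CPM. Each of these genes was lowest in the ligated library, and none passed the adjusted test with edgeR.

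Of the 26 tested genes of calcium handling and ion channels, 2 lay above and 11 below all mock libraries. Their median log2 fold change was -0.69, and -0.29 over mock 1. Their summed level was 3706 CPM in the ligated library and 4571 CPM in mock 1, and 7110 and 6490 CPM in mock 2 and mock 3. Pln was higher, at 819 CPM against 462, 594 and 467 CPM (log2 fold change 0.69, SE 0.24, edgeR adjusted p = 0.740; 0.83 over mock 1). Its target, the calcium pump Atp2a2, was lower, at 756 CPM against 1260, 1117 and 1024 CPM (-0.58, SE 0.22). Within the cells of 0 to 4 Rgs5 UMIs the Pln difference was 0.27, and within those of 15 or more it was 0.71. Abcc9 was at 104 CPM against 240, 215 and 174 CPM (-1.01, SE 0.30). Ano1, the calcium-activated chloride channel, was at 132 CPM against 186, 470 and 452 CPM. Its log2 fold change was -1.48 but -0.49 over mock 1, so its gap was larger over mock 2 and mock 3, which are of the other software version. Version cannot be told apart here from whatever else sets mock 1 apart from them. Cacna1c, the pore of the L-type calcium channel, named after its values were seen, also split by software version. It was at 109 CPM in the ligated library and 113 CPM in mock 1, and at 764 and 720 CPM in mock 2 and mock 3.

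Receptors and second messengers of vascular tone were mixed, with 8 of 27 above and 10 below all mock libraries. Avpr1a, the vasopressin receptor of vessels, was at 50.1 CPM against 25.6, 26.4 and 25.8 CPM (log2 fold change 0.95, SE 0.28, edgeR adjusted p = 0.740), with mock libraries that were almost equal. Agtr1a, the angiotensin II receptor, was at 22.7 CPM against 50.5, 57.1 and 40 CPM (-1.11, SE 0.36). Arhgef1, an activator of RhoA, was at 70.9 CPM against 42.4, 27.5 and 35.5 CPM, but at 198 CPM in the other ligated cells. Rgs5 was at 5354 CPM against 7912, 6739 and 6470 CPM (-0.39, SE 0.17), the lowest of the 4.

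Notch signalling between endothelium and mural cells keeps smooth muscle differentiated. Of its 15 tested genes 3 lay above and 9 below all mock libraries. Notch3, the main receptor of smooth muscle, was at 739 CPM in the ligated library and 1128, 1142 and 1118 CPM in mock 1, 2 and 3 (log2 fold change -0.61, SE 0.20, edgeR adjusted p = 0.740). It was lower in both Rgs5 ranges too, at 511 against 658 to 835 CPM in the low and 1005 against 1364 to 1438 CPM in the high. Its ligand Jag1 was at 128 CPM against 185, 165 and 179 CPM, and its target Heyl at 107 CPM against 169, 177 and 129 CPM. Myocd was at 58.6 CPM against 87.5, 104 and 107 CPM (-0.76, SE 0.28). Among the 24 tested transcriptional regulators of smooth muscle, 7 lay above and 9 below.

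Basement membrane genes, whose products surround each smooth muscle cell, lay below all 3 mock libraries in 11 of 18 cases and above in 0, with a median log2 fold change of -0.53 (-0.89 over mock 1). Lamc1, the laminin gamma 1 chain, was at 78.4 CPM against 163, 148 and 123 CPM (-0.88, SE 0.29), and Nid1, nidogen 1, at 47.3 CPM against 110, 71.9 and 83.5 CPM. Col18a1 was at 57.7 CPM against 214, 82.5 and 91.5 CPM. The integrin Itgb1, a receptor for these proteins, was at 788 CPM against 1464, 1017 and 955 CPM. None passed the adjusted test. Interstitial and elastic matrix genes showed no such lean, with 12 of 37 above and 8 below. Among them Mgp, an inhibitor of calcification, was at 1300 CPM against 664, 992 and 715 CPM, and at 5225 CPM in the other ligated cells against 598 to 698 CPM in those of the mock libraries. Spp1 and Cilp were at 29.3 and 30.2 CPM in the ligated library and at 0 to 2.02 CPM in the mock libraries, and at 576 and 392 CPM in the other ligated cells. The part of RNA from other cells in these 3 differences was not tested.

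Of 27 tested genes of PDGF and growth factor signalling 5 lay above and 10 below all mock libraries. Of 31 tested genes of the TGF-beta and BMP pathway 2 lay above and 15 below (median -0.39), among them the receptor Bmpr1a at 93.6 CPM against 135, 164 and 144 CPM and Fstl1, a secreted follistatin-like protein, at 118 CPM against 191, 181 and 197 CPM. Igfbp5, a binding protein for insulin-like growth factors, was at 1222 CPM against 930, 831 and 752 CPM (0.54, SE 0.21), and the receptor Igf1r at 67.1 CPM against 101, 155 and 144 CPM. Proteases and inhibitors lay above in 10 of 20 cases and below in 2. Serpine2, a serine protease inhibitor, was at 412 CPM against 247, 273 and 237 CPM (0.71, SE 0.23), and the lysosomal protease Ctsb at 203 CPM against 132, 118 and 99.5 CPM.

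Genes known to rise when smooth muscle cells leave the contractile state did not move together: of 18 tested, 5 lay above and 6 below. Lgals3, galectin 3, was at 175 CPM against 64.6, 44.4 and 38.2 CPM (log2 fold change 1.82, SE 0.32, edgeR adjusted p = 0.570). In the other kept cells Lgals3 was at 214 CPM in the ligated library and 88.1 to 105 CPM in the mock libraries, and macrophage markers were higher among the ligated members, as given above. Their part in the Lgals3 difference was not tested. S100a4, a calcium-binding protein, went the other way, at 86 CPM against 192, 205 and 163 CPM (-1.12, SE 0.28). Tnfrsf1a, the main receptor of TNF, was at 169 CPM against 97, 87.8 and 77.3 CPM (0.95, SE 0.25). Interferon-stimulated genes were above in 15 of 33 cases and below in 4, with a median of 0.15 (0.73 over mock 1). H2-K1, a class I antigen-presenting molecule, was at 251 CPM against 103, 125 and 152 CPM, and Ly6e at 135 CPM against 56.6, 55 and 65.7 CPM. In the other kept cells H2-K1 was also above all 3 mock libraries, at 2339 against 1790 to 2078 CPM. Ly6e lay inside the mock range there, at 1344 against 1201 to 1609 CPM.

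Ribosomal protein genes lay above all 3 mock libraries in 27 of 30 cases and below in 1, with a median log2 fold change of 0.45 (0.60 over mock 1). Rps15 was at 1230 CPM against 598, 408 and 417 CPM. Rpl5 was at 786 CPM against 386, 326 and 349 CPM. No ribosomal gene passed the adjusted test, and many have near-identical pseudogene copies, so their counts are uncertain. In the other cells Rps15 was at 1629 CPM in the ligated library and 475 to 860 CPM in the mock libraries, a gap in the same direction.

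The pericyte markers carried by the members were lower in the ligated library in 7 of 12 cases and higher in 1, with a median log2 fold change of -0.47 (-0.56 over mock 1, and 0.26 in the cells of 0 to 4 Rgs5 UMIs). Art3, an ADP-ribosyltransferase, was at 44.4 CPM against 124, 218 and 168 CPM (-1.93, SE 0.41, edgeR adjusted p = 0.740). Steap4 was at 126 CPM against 264, 323 and 301 CPM (-1.23, SE 0.27), and Cox4i2, a cytochrome oxidase subunit, at 403 CPM against 592, 757 and 761 CPM (-0.80, SE 0.26). On the scaling shared with pericytes, all of these were also lowest in the ligated pericytes. Art3 was at 269 against 531 to 746 CPM, Steap4 at 805 against 1443 to 1646 CPM and Cox4i2 at 333 against 770 to 916 CPM. Rgs5, by which the pericytes were chosen, was not lower there, at 5661 against 5040 to 5659 CPM. The share of Rgs5-rich cells also differed between the libraries. In the cells of 15 or more Rgs5 UMIs Steap4 differed by -1.11 and Abcc9 by -0.89, while in the cells of 0 to 4 they differed by 0.10 and 0.06, at levels of 5.57 to 29.1 and 3.72 to 37.8 CPM.

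**Figure D4:**
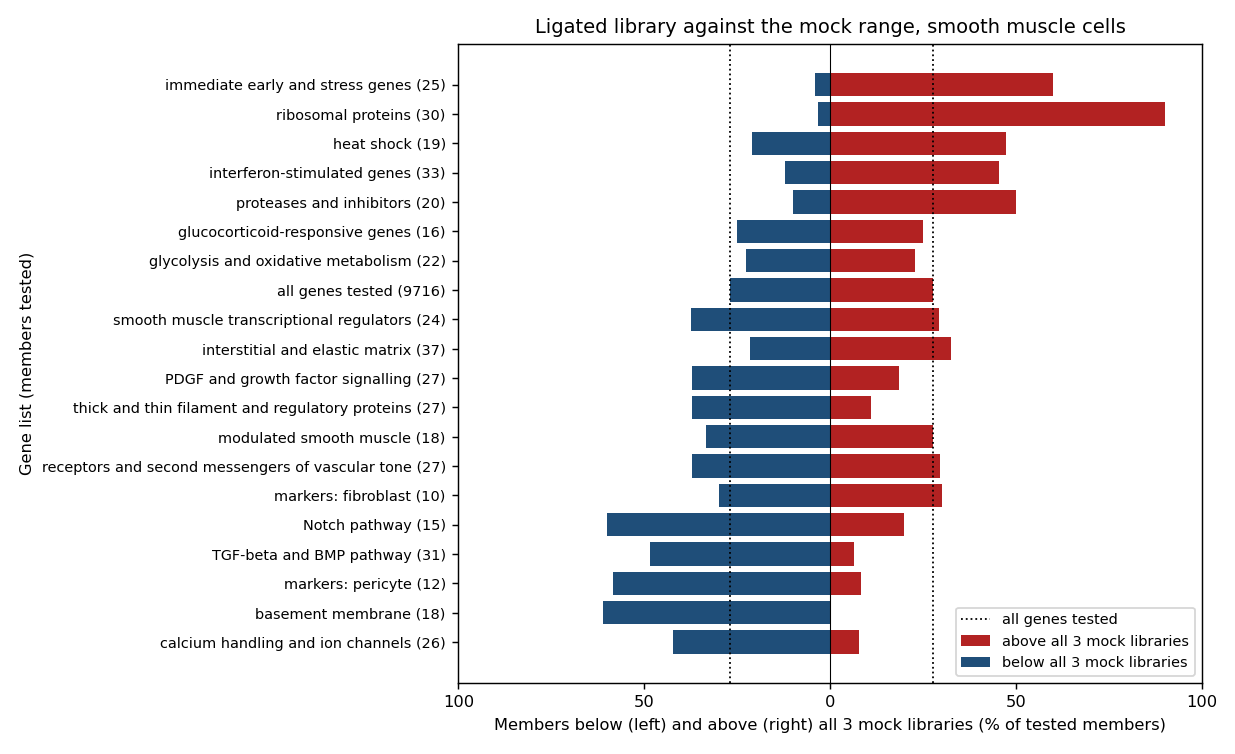
Share of the tested members of each list (%) that lay above (right) or below (left) all 3 mock libraries in the smooth muscle cells of the ligated library, with the lists ordered by median log2 fold change and dotted lines for all genes tested (27.5 and 26.9%). Ribosomal proteins (27 of 30) and immediate early genes (15 of 25) lie mostly above, and basement membrane genes (11 of 18) mostly below.

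Pericytes of the same libraries served as the nearest comparison. The ligated library held 206 of them and mock 1, 2 and 3 held 70, 90 and 135, chosen by at least 2 Rgs5 UMIs, at least 2 of Kcnj8, Abcc9, Higd1b and Ndufa4l2 together, and no Myh11. Their median depth was lower, at 2628.5 UMIs in the ligated library and 2325 to 4039.5 in the mock libraries, against 5014 and 5529 to 9169 in the smooth muscle cells. Since both rules use these cells' own counts, the levels are a description, and here they share 1 scaling over both cell types. Pln was at 906 CPM in the smooth muscle cells and 0 CPM in the pericytes of the ligated library, and at 521 and 6.63, 658 and 0, and 524 and 0 CPM in mock 1, 2 and 3. Cdh6, a cadherin, was at 130 to 191 CPM in smooth muscle cells and at 0 in the pericytes of all 4 libraries. Inhba, an activin subunit, was at 86.7 to 195 CPM against 0. Kcnab1 (219 to 829 CPM), the ATP-gated channel P2rx1 (127 to 373 CPM), Fbxl22 (224 to 355 CPM) and the intermediate filament protein Synm (148 to 398 CPM) were at 3.32 CPM or less in the pericytes. Map3k7cl, Net1 and Rbm24 followed the same pattern. Kcnab1 also split by software version in the smooth muscle cells. It was at 219 and 222 CPM in the ligated library and mock 1, and at 828 and 829 CPM in mock 2 and mock 3. On the other side, Dapk2, a kinase, was at 3.14 to 25.8 CPM in smooth muscle cells and 252 to 513 CPM in pericytes, Elmod1 at 7.32 to 24.3 against 70.4 to 398 CPM, and the eosinophil chemokine Ccl11 at 58.6 to 139 against 238 to 1337 CPM. Pla1a, Nr1h3, St8sia4, Ctsh and Oaf were lower in smooth muscle cells in all 4 libraries, as were Pde7b and Grm7, which also split by software version.

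The effect of surgery was tested for a difference between the 2 cell types, in 1 fit with a term for each library. Of 10167 genes, 29 had a lower ligated-over-mock difference in smooth muscle cells than in pericytes (0.285%) and 1 a higher one (0.00984%) at an edgeR adjusted p under 0.05. Of the 29, the ligated library lay above all 3 mock libraries in 28 in the pericytes and in 9 in the smooth muscle cells, where it lay below all 3 in 6. Over all genes tested in the smooth muscle cells, 27.5% lay above and 26.9% below all 3. The same shares over all genes were not counted in the pericytes. Since the 29 were chosen by this difference, the counts only describe them. By the naming rule only Atp1b1, Kcna1, Dcpp1, Dcpp2, Dcpp3 and Mmp3 were to be named, and the others given here were chosen after their values were seen. Serpine2 was at 869 CPM in ligated and 172, 220 and 220 CPM in mock pericytes, and at 456 against 279, 302 and 266 CPM in smooth muscle cells (difference of log2 fold changes -1.40, SE 0.27, edgeR adjusted p = 0.0133). Csrp2, a LIM protein of smooth muscle was at 105 CPM against 6.63, 30.9 and 24.2 CPM in pericytes and at 547 against 518, 542 and 521 CPM in smooth muscle cells (-2.27, SE 0.40). S100a4 was at 51.6 CPM against 3.09 to 5.37 CPM in pericytes and at 95.2 against 183 to 227 CPM in smooth muscle cells (-4.75, SE 0.56). The matrix and fibroblast genes Dcn, Lum and Pdgfra were among the 29: Pdgfra was at 82.9 CPM in ligated and 0 to 24.7 CPM in mock pericytes, and at 9.42 against 15.2 to 32.8 CPM in smooth muscle cells. Whether fibroblast RNA or fibroblasts inside the pericyte gate have a part in these calls was not tested. The gene with the higher difference was Atp1b1, a sodium pump subunit, at 25.1 CPM against 9.97 to 25 CPM in smooth muscle cells and 36 against 45.6 to 245 CPM in pericytes. Without mock 2 the calls were 17, of which 17 were among the 30, and without mock 1 they were 93.

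**Figure D5:**
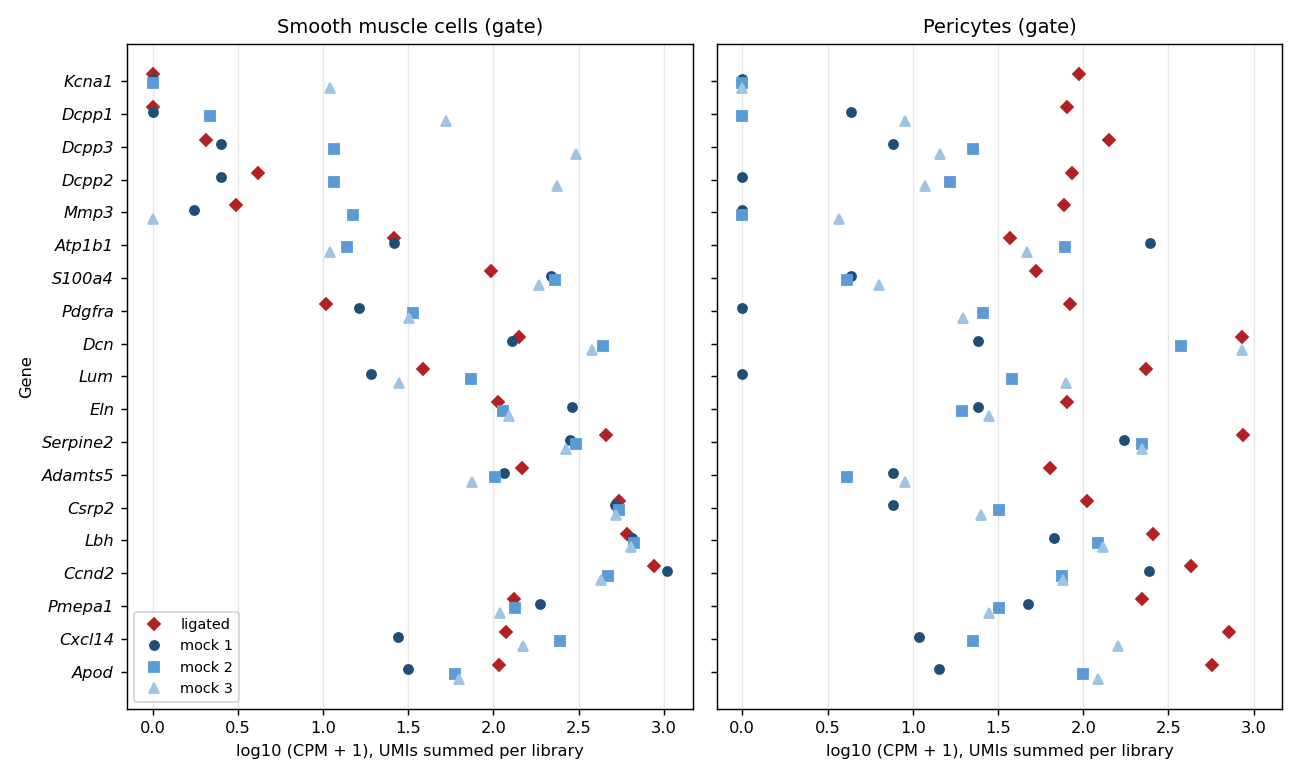
Levels on a log10 scale (CPM + 1) of 19 genes past the threshold of the test for a difference between cell types in the surgery effect, with 1 point per library, in smooth muscle cells and in pericytes. In the pericytes the ligated point lies to the right of the mock points for every gene drawn but Dcn, where it is level with mock 3, and Atp1b1, where it lies to the left. In the smooth muscle cells the ligated points of S100a4 and Pdgfra lie to the left of the mock points, as do, more narrowly, those of Eln, Lbh and Dcpp3.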

How the data were processed

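Each library was deposited as a matrix of UMI counts per gene and cell barcode. Per the file headers, the authors' counts for mock 2 and mock 3 were made by version 7.0.0 of Cell Ranger, those of the other libraries by version 6.0.1, while the submitters' processing notes name Cell Ranger 7.0.1 and the mm10 genome. The sources used here do not say whether intronic reads were counted. The libraries held 13790, 4798, 9627 and 13194 barcodes with 80187555, 29897488, 47182114 and 56932041 UMIs (ligated, mock 1, 2 and 3), and the 30406 genes common to all were used. Raw counts of the gated cells were summed per library, giving 1110486, 1537856, 921534 and 1105605 UMIs. Sums were tested with edgeR 4.0.16 (quasi-likelihood test, TMM scaling, filterByExpr, Benjamini-Hochberg adjustment, threshold 0.05) with 2 residual degrees of freedom, on R 4.3.3. DESeq2 1.42.0 was an alternative. The test of cell type by surgery used 8 sums with a library term. CPM are on the TMM-scaled totals of the fit named. Detection was compared in cells thinned to 2000 UMIs, and 10, 4, 5 and 7 shallower cells were left out. No doublet caller was run. As an alternative, the tenth of cells with the most UMIs was left out. A few results on single genes are not reported here. Gene lists are described by counts and medians, with no set test. Besides the 6 marker genes, the genes named are the 12 with the largest difference in each direction past 50 CPM and 1.5 times outside the mock range. In each list up to 4 genes with the smallest p and the most abundant one could be named. For the pericyte comparison, they are the 10 with the largest ratio each way past 100 CPM. The members and lists were chosen with earlier results of these data known. The scripts were tested on simulated data. Promoters came from RefSeq (GRCm38.p6) and the CArG box was searched by its consensus.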

Additional observations from a re-analysis of the deposited data

Results flagged for a closer look

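The surgery effect differed between smooth muscle cells and pericytes, by the test of that difference, for 30 of 10167 genes. The fitted differences of log2 fold changes (smooth muscle cells minus pericytes) were -4.75 for S100a4, -3.97 for Pdgfra, -3.76 for the chemokine Cxcl14, -2.78 for Pmepa1 (an inhibitor of TGF-beta signalling) and -2.72 for the protease Adamts5. They were -2.59 for Dcn, -2.59 for Lum, -2.43 for elastin (Eln), -2.27 for Csrp2, -1.84 for the lipid carrier Apod, -1.40 for Serpine2, -1.39 for Lbh and -1.35 for cyclin D2 (Ccnd2), and 2.40 for Atp1b1. Pmepa1 was at 132 CPM in ligated and 109 to 187 CPM in mock smooth muscle cells, and at 221 CPM in ligated and 26.8 to 46.4 CPM in mock pericytes.

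Pdgfra and Lum were at 0 in the pericytes of mock 1, which limits how exactly their fitted terms can be read as folds. The same holds for Dcpp2 and Mmp3, which were at 0 in some sums, while Dcpp3 was at 0 in none. Kcna1 and Dcpp1 were at 0 in the ligated smooth muscle cells, so their terms depend on the prior count and are no fold. These 5 terms were -13.6 for the potassium channel Kcna1, -11.0 for Dcpp1, -9.69 for Dcpp3, -7.90 for Dcpp2 and -7.10 for the protease Mmp3. The Dcpp genes encode secreted proteins of salivary acini. Dcpp3 was at 303 CPM in the smooth muscle cells of mock 3 and at 1.05 to 10.5 CPM in those of the other libraries, and at 141 CPM in ligated and 6.63 to 21.7 CPM in mock pericytes. The part of secretory RNA from other cells in these terms was not tested.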

How the results depend on the processing

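No paired analysis was possible because the ligated library and the mock libraries share only the replicate number 1. The genes past the threshold in smooth muscle cells numbered 1 in the main fit, 12 with no filter on low counts, 5 with DESeq2, 1009 with a software version term, and 0 with the wider gate, in cells of 0 to 4 Rgs5 UMIs and in cells of 15 or more. Leaving out 1 mock library gave 1 to 1699. The terms of cell type by surgery numbered 30, or 80 with no filter, and 17 to 93 without 1 mock library. Fitted log2 fold changes turned direction for Myl9 with the version term (-0.0234) and at 15 or more Rgs5 UMIs (-0.141). At 15 or more they also turned for Lmod1 (-0.0223) and S100a4 (0.10), and at 0 to 4 for Abcc9 (0.0569), Rgs5 (0.24) and Steap4 (0.0954). Ccl5 had an edgeR adjusted p of 0.0606, 0.0801 and 0.120 with the wider gate and in the low and high Rgs5 range. Of 954 values for 64 genes, 814 kept direction and side of the threshold. The Rgs5 ranges, the depth limit of 3000 UMIs and the sum of mock 2 and mock 3 (1 gene) were chosen after seeing the data. The causes were not tested. With 1 ligated library, no spread among ligated glands was measured, and it is assumed to vary like the mock libraries.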
